A study of Mus musculus with 76 samples.

Results

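Voltage-gated ion channel genes were defined by name, as every gene whose single symbol in the array's annotation begins with Kcn or Cacn, or with Scn or Hcn followed by a digit. Kcne2, a marker of the choroid plexus, was left out. The rule took 88 of the 11807 genes measured with a single symbol. Together they had 127 probe sets, and where a gene had several, the brightest on average over the 76 arrays stood for it. They comprised 7 pore-forming sodium channel genes and 1 sodium channel beta subunit, 9 calcium channel pore genes, 3 alpha2delta subunits, 1 calcium channel beta subunit, 7 genes of the gamma family, and 1 HCN channel. The potassium channel genes comprised 18 pore genes of the Kv type, 11 Kv auxiliary subunits, 13 inward rectifiers and 8 two-pore channels. Another 9, named Kcnm, Kcnn or Kcnu, were grouped by name as calcium- or sodium-activated, and no sodium-activated (Kcnt) gene was among them. Because the rule reads names only, it also took genes whose channels are not opened by voltage themselves, chiefly the inward rectifiers (Kcnj), the two-pore channels (Kcnk), the small-conductance channels (Kcnn) and the gamma-family proteins that mostly serve AMPA receptors (Cacng2 to Cacng8).

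Hippocampal RNA from 76 female mice was hybridised to Affymetrix arrays. Each array is labelled with its own mouse number and was taken as 1 mouse. The series' design text can also be read as several animals to an array or fewer animals to a group, in which case n counts arrays and the errors given here describe the spread between arrays. The rTg4510 mice carried 2 transgenes, a mutant human tau behind a tetracycline-responsive element and the tetracycline transactivator tTA behind the CaMKIIα promoter, which is active in forebrain neurons. The tTA mice carried the transactivator alone, and DN (double negative) littermates carried neither. All came from crosses between a tau line and a tTA line on different inbred backgrounds, and mice with the tau transgene alone were not analysed here. The rTg4510 mice numbered 10 at 1.9 months (1.7 to 2 months), 10 at 4.7 months (4.5 to 5 months) and 6 at 6.1 months (5.9 to 6.3 months). The tTA mice numbered 10 at 4.7 months (4.6 to 5 months), 10 at 6.1 months (6 to 6.2 months) and 5 at 10.7 months (10.7 to 10.8 months). The DN mice numbered 10 at 4.7 months (4.6 to 4.9 months), 10 at 6.1 months (6.1 to 6.4 months) and 5 at 10.7 months (10.7 to 10.8 months). No control mice of 1.9 months were measured, so age and tau expression cannot be told apart within rTg4510.

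Voltage-gated channels turn a change in membrane potential into an ion current. Sodium channels carry the upstroke of the action potential, Kv channels end it and set its rate, and calcium channels couple it to transmitter release and gene expression. Most pores work with auxiliary subunits that set how many channels reach the membrane and how fast they open and close, and in hippocampal pyramidal neurons the balance of these parts shapes dendritic excitability and firing.

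Values are log2 signals, in which a difference of 1 is a doubling, and they compare 1 probe set between mice but not different genes with each other. Array medians lay between 5.23 and 5.39. Of the 88 genes, 44 had a mean signal above the median of all probe sets, 5.34. The mean signal of 7 pan-neuronal markers lay between 9.26 and 10.07 in the 76 mice. Mouse tau, Mapt, differed by 0.03 ± 0.04 (SE) between rTg4510 and tTA at 4.7 months, with an adjusted p of 0.726, and the human transgene was not measured here. Some arrays stood apart. Mouse 40 (rTg4510, 4.7 months) had the lowest activated microglia score (9 markers) of its group, 5.23, and the highest CA1 pyramidal score (4 markers), 8.51, which lay inside the tTA range of 8.39 to 8.72. Mouse 21 (tTA, 6.1 months) had the lowest median correlation with its own group, 0.990, and the lowest pan-neuronal score of all mice, 9.26. A DN mouse of 10.7 months had an astrocyte score of 9.10, against 8.45 to 8.49 in the other 4 of its group, an oligodendrocyte score of 9.94 against 8.97 to 9.34, and a CA1 score of 8.35 against 8.59 to 8.63. The counts are therefore also given without these mice.

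The tau transgene was addressed by comparing rTg4510 with tTA mice of the same age. More channel genes were lower than higher at both ages. The genes that differed were mostly auxiliary subunits, with few pore genes of the voltage-gated types. The only leak or inward rectifier genes called were Kcnj3 and Kcnk2 at 4.7 months, and Kcnj9, Kcnj10, Kcnk2 and Kcnk3 at 6.1 months. Whether any family had more calls than its size would give was not tested. At 4.7 months 12 of the 88 genes (13.6%) were lower in rTg4510 and 2 (2.27%) were higher. Over all 11807 genes, 3.38% were lower and 5.73% higher. At 6.1 months 14 channel genes (15.9%) were lower and 4 (4.55%) higher, against 8.64% and 6.23% of all genes. Differences were called with limma at an adjusted p below 0.05 over all 22626 probe sets.

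All 12 genes lower at 4.7 months and all 14 lower at 6.1 months were among the 44 channel genes above the median signal. Among all genes of that brightness, 5.48% were lower at 4.7 months and 13.9% at 6.1 months. The median difference of the 88 genes was -0.04 at both ages, beside -0.01 and -0.02 for all genes, and the difference was negative in 72.7% of channel genes at 4.7 months (54.5% of all genes) and in 67% at 6.1 months (57.8% of all genes). Genes called lower at both ages were Cacna1g, Cacnb1, Kcnab1, Kcnab2, Kcnip4, Kcnk2, Kcnmb4 and Scn3b, and those called higher at both ages were Kcne1l and Kcnip3. No share of all genes called at both ages is given here to set beside these lists. The plot of differences by family shows where the called genes lie.

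**Figure D1:**
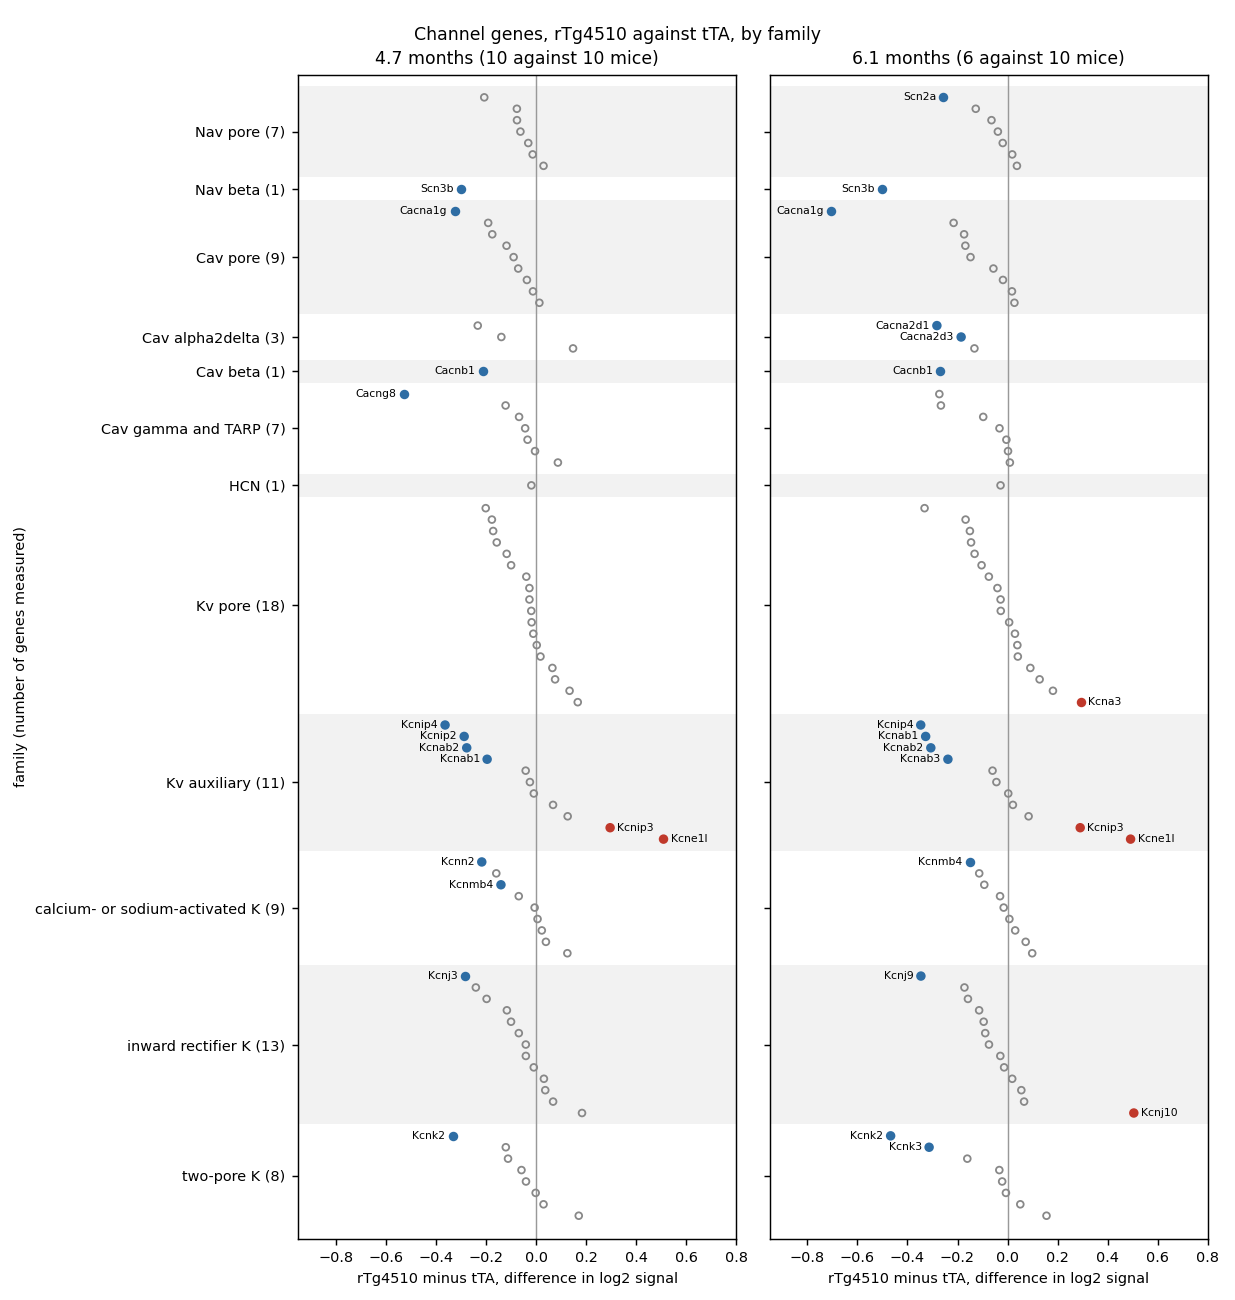
Log2 signal of rTg4510 minus that of tTA mice, aged 4.7 months (left, 10 against 10 mice) or 6.1 months (right, 6 against 10 mice), for the 88 channel genes, in rows by family. Filled points are genes called by limma (blue lower, red higher, named) and open points were not called. None of the 18 Kv pore genes was called lower at either age, while 4 of the 11 Kv auxiliary genes were. Both families hold genes below the median signal of all probe sets, such as Kcnq1 (mean 3.29) and Kcne1 (2.84), and no gene below it was called lower.

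Some cell type markers moved with the same comparison. The CA1 pyramidal list, with Wfs1, Pou3f1, Lefty1 and Ccn3, had 3 of 4 genes lower at 4.7 months and 4 of 4 at 6.1 months, when its score was 7.21 to 7.84 in rTg4510 and 8.48 to 8.77 in tTA mice. The astrocyte list, which holds Gfap and Aqp4, had 3 of 6 genes higher at 4.7 months and 6 of 6 at 6.1 months, with scores of 8.97 to 9.35 against 8.32 to 8.65. All 9 activated microglia genes were higher at both ages. Pan-neuronal markers had 1 of 7 lower at 4.7 months and 2 of 7 at 6.1 months, with none higher. In whole hippocampus, fewer cells of a type and less RNA per cell cannot be told apart, and the part of these shifts in the channel differences was not tested.

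The choroid plexus score (7 markers) ranged from 4.38 to 8.68 in rTg4510 and from 4.34 to 8.24 in tTA mice at 4.7 months, with means of 7.11 ± 1.47 and 5.44 ± 1.49 (SD, n = 10 each), and none of its genes was called. With this score as a covariate, 5 channel genes stayed called at 4.7 months, Cacng8, Kcnab2, Kcne1l, Kcnk2 and Scn3b. All 14 kept their sign, and the share of all genes called fell to 1.28% lower and 2.82% higher. At 6.1 months 17 of the 18 channel genes stayed called with the covariate, and Kcnmb4 did not. Without mouse 40 the count at 4.7 months was 15 lower and 2 higher, with the same 14 genes kept. It was 9 in all without mouse 43 or mouse 67 and 8 without mouse 44. Without mouse 21 the count at 6.1 months was 16 lower and 4 higher, with all 18 kept.

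**Figure D2:**
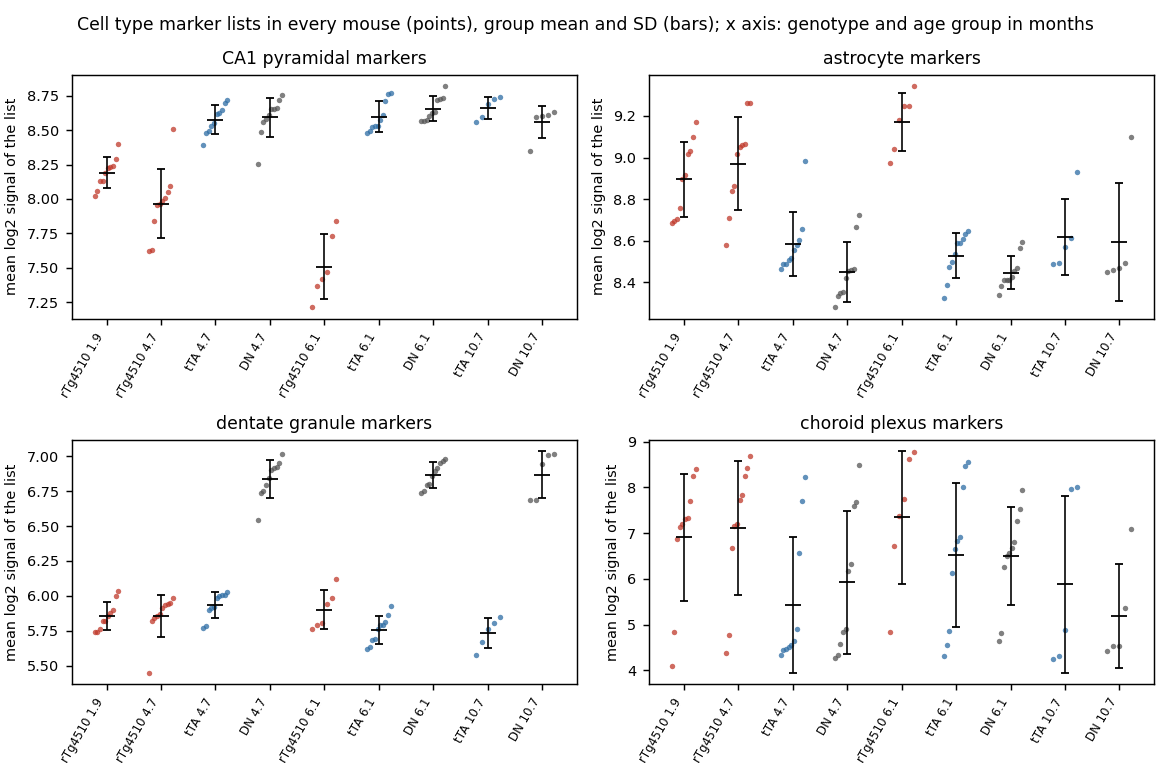
Mean log2 signal of the CA1 pyramidal, astrocyte, dentate granule and choroid plexus marker lists in each of the 76 mice (points), grouped by genotype and age (months), with the mean and SD of each group. CA1 scores were lower and astrocyte scores higher in rTg4510 mice of 6.1 months with no overlap with tTA mice, dentate scores separated DN mice from the other genotypes, and choroid plexus scores spread widely within every group.

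Scn3b, the beta3 auxiliary subunit of sodium channels, gave the smallest adjusted p of the 88 genes at both ages. At 4.7 months its lowest, median and highest log2 signals were 9.41, 9.63 and 9.89 in rTg4510 and 9.82, 9.91 and 10.14 in tTA mice, and 8 of 10 rTg4510 mice were below every tTA mouse. At 6.1 months they were 9.19, 9.34 and 9.55 in rTg4510 and 9.78, 9.84 and 9.96 in tTA mice, and the groups did not overlap. The difference was -0.30 ± 0.06 (SE) with an adjusted p of 0.000685 at 4.7 months, and -0.50 ± 0.04 with an adjusted p of 2.69e-09 at 6.1 months, a level 1.42-fold lower. A second Scn3b probe set was also lower and called at 4.7 months (-0.46, adjusted p = 0.00117), but at 6.1 months it was not called (-0.39, adjusted p = 0.165).

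Of the 7 sodium channel pore genes, only Scn2a, which encodes Nav1.2 of the axon initial segment, was called in these comparisons. Its signals at 6.1 months were 9.58, 9.72 and 9.84 (lowest, median, highest) in rTg4510 and 9.62, 10.02 and 10.13 in tTA mice, so the ranges overlapped, and the difference was -0.26 ± 0.06 with an adjusted p of 0.00528. At 4.7 months it was -0.06 ± 0.06 (adjusted p = 0.588). Scn1a, the Nav1.1 gene prominent in inhibitory interneurons, differed by -0.08 ± 0.07 and -0.02 ± 0.05 at the earlier and later age, and Scn8a, the Nav1.6 gene of nodes and initial segments, by -0.21 ± 0.09 and -0.13 ± 0.13. Neither was called (adjusted p from 0.149 to 0.887), although without mouse 40 Scn8a was called lower at 4.7 months. Scn3a, Scn7a, Scn10a and Scn11a were dim, with mean signals of 2.80 to 3.34 over the 76 arrays.

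Among the 9 calcium channel pore genes only Cacna1g was called. It encodes Cav3.1, a low-threshold T-type channel. At 4.7 months its lowest, median and highest signals were 6.52, 7.01 and 7.22 in rTg4510, 6.87, 7.32 and 7.71 in tTA, and 6.21, 6.64 and 6.89 in DN mice. At 6.1 months they were 6.15, 6.502 and 6.77 in rTg4510, 7.02, 7.21 and 7.51 in tTA, and 6.27, 6.49 and 6.78 in DN mice. The tTA mice were thus the high group at both ages, and at 6.1 months every rTg4510 mouse lay below every tTA mouse but inside or near the DN range. Against tTA, Cacna1g was lower by -0.33 ± 0.10 (adjusted p = 0.046) at 4.7 months, a call lost in 15 of 30 fits that left out 1 mouse, and by -0.71 ± 0.09 (adjusted p = 1.51e-06) at 6.1 months, or 1.63-fold.

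Cacna1a, the P/Q-type pore of presynaptic terminals, differed by -0.09 ± 0.06 at 4.7 months and by -0.17 ± 0.07 at 6.1 months and was not called (adjusted p = 0.492 and 0.127). Cacna1c, the L-type Cav1.2 pore, differed by -0.01 ± 0.06 and by -0.06 ± 0.07 (adjusted p = 0.945 and 0.691). The called calcium channel genes were otherwise subunits. Cacnb1, a beta subunit that brings the pore to the membrane, was lower by -0.21 ± 0.07 (adjusted p = 0.0417) at 4.7 months and by -0.27 ± 0.06 (adjusted p = 0.00385) at 6.1 months, and another of its probe sets was called the same way at each age. The call at 4.7 months was lost in 11 of 30 fits that left out 1 mouse.

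Among the alpha2delta subunits, which raise surface expression of the pore and bind gabapentin in the case of Cacna2d1, 2 of 3 were lower at 6.1 months. Cacna2d1 had signals of 6.80, 7.05 and 7.24 in rTg4510 and 7.14, 7.29 and 7.55 in tTA mice (lowest, median, highest), with 4 of 6 rTg4510 mice below every tTA mouse. The difference was -0.28 ± 0.07 with an adjusted p of 0.01, while a dimmer Cacna2d1 probe set differed by 0.04 (adjusted p = 0.942). Cacna2d3 differed by -0.19 ± 0.05 (adjusted p = 0.00948). In the gamma family, Cacng8, an AMPA receptor auxiliary subunit of the hippocampus, was lower by -0.53 ± 0.11 (adjusted p = 0.0022) at 4.7 months. This was the largest fall of any channel gene at that age, but only 3 of 10 rTg4510 mice were below every tTA mouse. Against DN mice of that age Cacng8 was lower by -0.40 ± 0.11 (adjusted p = 0.0121). At 6.1 months it differed from tTA by -0.10 ± 0.15 (adjusted p = 0.761). Its mean was 6.02 and 5.63 in tTA and 5.49 and 5.53 in rTg4510 mice at the earlier and later age. Cacng2 (stargazin) differed by 0.00 ± 0.07 and 0.00 ± 0.06.

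**Figure D3:**
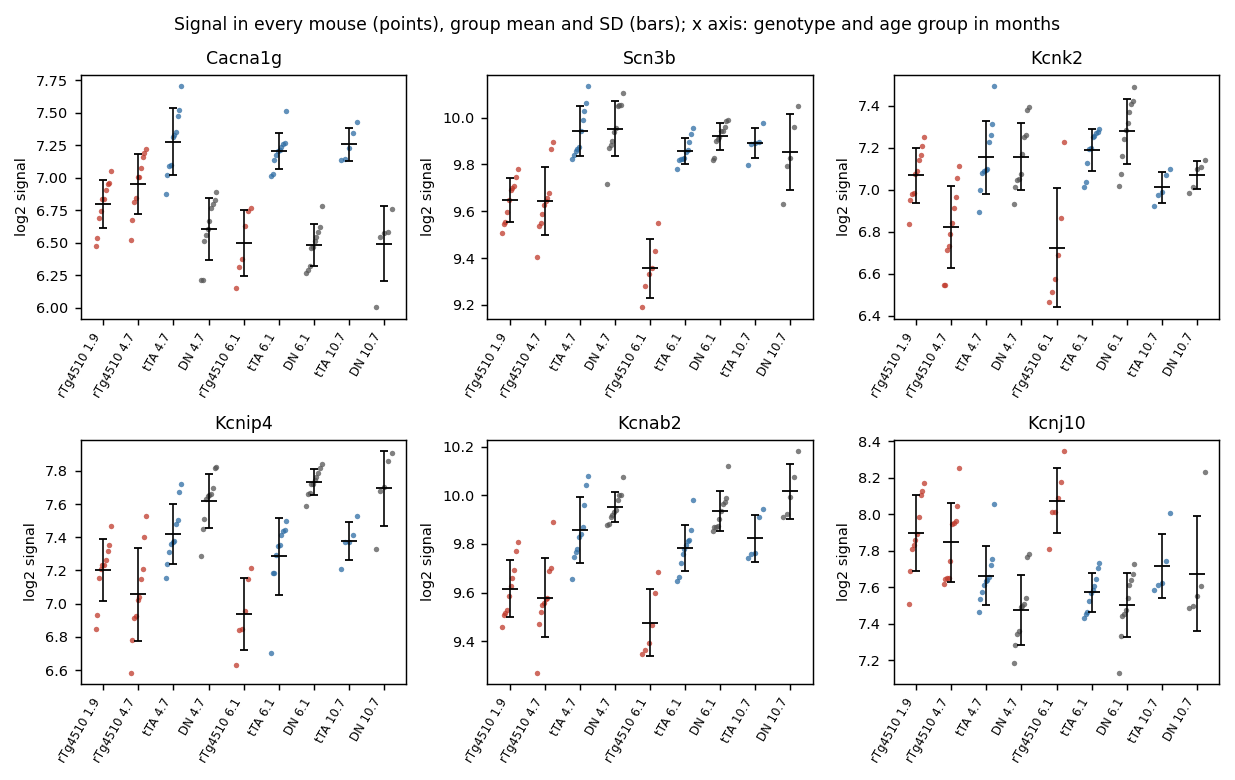
Log2 signal of leading channel genes in every mouse (points), grouped by genotype and age (months), with the mean and SD of each group. For Scn3b the 6 rTg4510 mice of 6.1 months (9.19 to 9.55) lie below the tTA (9.78 to 9.96) and DN (9.82 to 9.99) mice of that age, while for Cacna1g the tTA mice of 6.1 months (7.02 to 7.51) lie above the rTg4510 (6.15 to 6.77) and DN (6.27 to 6.78) mice of that age.

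Of the 18 Kv pore genes none was called at 4.7 months, and 1 was called at 6.1 months. That gene was Kcna3, the Kv1.3 gene known from lymphocytes and microglia. Its lowest, median and highest signals were 4.27, 4.43 and 4.62 in rTg4510 and 3.76, 4.21 and 4.44 in tTA mice, with 3 of 6 rTg4510 mice above every tTA mouse. The difference was 0.29 ± 0.08 (adjusted p = 0.0147), a call lost without mouse 11, and it was 0.13 ± 0.08 against DN mice (adjusted p = 0.323). Kcna1, the axonal Kv1.1 gene, differed from tTA by -0.03 ± 0.06 and 0.09 ± 0.07 at the earlier and later age, Kcnc1, the fast-spiking Kv3.1 gene, by -0.17 ± 0.11 and 0.04 ± 0.09, and Kcnh1, an ether-a-go-go gene, by -0.12 ± 0.09 and -0.07 ± 0.08. The HCN channel Hcn2, which carries part of the hyperpolarisation-activated current, differed by -0.02 ± 0.05 and -0.03 ± 0.07. None of these 4 genes was called (adjusted p from 0.43 to 0.891).

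Kv auxiliary subunits moved in both directions, with 4 of 11 lower and 2 higher at each age. The cytoplasmic Kvbeta subunits bind Kv1 channels and can speed their inactivation. Kcnab2 had signals of 9.27, 9.57 and 9.89 in rTg4510 and 9.66, 9.83 and 10.08 in tTA mice at 4.7 months, and of 9.35, 9.43 and 9.68 against 9.65, 9.79 and 9.98 at 6.1 months (lowest, median, highest). All but 3 rTg4510 mice at the earlier age and all but 1 at the later age were below every tTA mouse. The differences were -0.28 ± 0.06 (adjusted p = 0.00164) and -0.31 ± 0.05 (adjusted p = 0.000207). Kcnab1 was lower by -0.20 ± 0.06 (adjusted p = 0.0266) and -0.33 ± 0.06 (adjusted p = 0.000275), and Kcnab3, named here after its values were seen, was lower at 6.1 months (-0.24 ± 0.07, adjusted p = 0.0201) and differed by -0.01 ± 0.08 at 4.7 months (adjusted p = 0.972). The change of the Kcnab3 difference between the ages was not called (adjusted p = 0.612). Another probe set of Kcnab1 and of Kcnab2 was called lower at 4.7 months. At 6.1 months no other probe set of Kcnab1, Kcnab2 or Kcnab3 was called.

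KChIP proteins are calcium-binding subunits of Kv4 channels, which carry the A-type current of dendrites. Kcnip4 (KChIP4) had signals of 6.58, 7.03 and 7.53 in rTg4510 and 7.15, 7.38 and 7.72 in tTA mice at 4.7 months, with 7 of 10 rTg4510 mice below every tTA mouse. At 6.1 months they were 6.63, 6.90 and 7.21 against 6.70, 7.35 and 7.50, and the ranges overlapped. The differences were -0.36 ± 0.09 (adjusted p = 0.0108) and -0.35 ± 0.09 (adjusted p = 0.00979). Kcnip2 (KChIP2) was lower at 4.7 months (-0.29 ± 0.07, adjusted p = 0.00961) with 8 of 10 rTg4510 mice below every tTA mouse and 1 above, but a dim Kcnip2 probe set differed by 0.02 (adjusted p = 0.921). At 6.1 months Kcnip2 differed by -0.04 ± 0.11 (adjusted p = 0.866).

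Kcnip3 (calsenilin or DREAM, which also represses transcription) went the other way. Its lowest, median and highest signals were 6.91, 7.65 and 7.95 in rTg4510 and 7.07, 7.31 and 7.64 in tTA mice at 4.7 months, and 7.39, 7.74 and 7.83 against 7.17, 7.42 and 7.49 at 6.1 months. In the younger group 5 of 10 rTg4510 mice were above every tTA mouse and 1 was below, and in the older group 5 of 6 were above. Kcnip3 was higher by 0.30 ± 0.09 (adjusted p = 0.0379) and 0.29 ± 0.07 (adjusted p = 0.00438), and a second probe set was called higher at both ages, although the first call was lost in 12 of 30 fits without 1 mouse. Against DN mice the difference was 0.13 ± 0.09 and 0.13 ± 0.07 and was not called (adjusted p = 0.396 and 0.23). Kcne1l, a single-span KCNE subunit, was higher by 0.51 ± 0.12 (adjusted p = 0.00578) and 0.49 ± 0.09 (adjusted p = 0.000526), on a dim probe set whose group medians were 3.87 to 4.48.

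Promoter sequences were read from RefSeq (GRCm38.p6) as the 250 bases before each annotated start, in the direction of the gene, for 71 of the 88 genes (95 windows). Windows were found for 6 of the 8 genes lower at both ages, and for Kcnj10, which was higher at 6.1 months. A few are shown, because Kcnip4 and Kcnmb4 were lower at both ages and differ in base composition, and Kcnj10 was the channel gene of largest rise at 6.1 months. Capitals mark GC boxes (GGGCGG or CCGCCC) and CCAAT boxes (CCAAT or ATTGG) on either strand. They lie at chr5:49285660-49285909 (minus strand), chr10:116473524-116473773 (minus strand) and chr1:172340960-172341209 (plus strand).
Kcnip4: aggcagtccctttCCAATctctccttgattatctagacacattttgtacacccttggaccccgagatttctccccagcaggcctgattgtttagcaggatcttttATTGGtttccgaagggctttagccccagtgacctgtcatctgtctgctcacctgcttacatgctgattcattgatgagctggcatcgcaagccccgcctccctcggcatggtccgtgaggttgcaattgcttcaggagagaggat
Kcnmb4: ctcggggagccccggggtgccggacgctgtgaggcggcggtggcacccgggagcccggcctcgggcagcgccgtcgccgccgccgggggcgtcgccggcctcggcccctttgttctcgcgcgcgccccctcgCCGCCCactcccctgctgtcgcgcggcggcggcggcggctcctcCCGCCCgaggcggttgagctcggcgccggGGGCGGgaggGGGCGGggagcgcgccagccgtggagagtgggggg
Kcnj10: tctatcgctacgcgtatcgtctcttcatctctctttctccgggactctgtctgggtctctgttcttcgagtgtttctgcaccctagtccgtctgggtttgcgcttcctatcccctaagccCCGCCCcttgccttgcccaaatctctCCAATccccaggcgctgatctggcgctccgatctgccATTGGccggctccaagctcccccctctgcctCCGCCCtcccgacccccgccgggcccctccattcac
The Kcnip4 window, at the first of 2 annotated starts, has 2 CCAAT boxes and no GC box, the Kcnmb4 window has 4 GC boxes and 83.6% G or C, and the Kcnj10 window has 2 of each box. The Kcnip4 window shown has 51.2% G or C. The window at the second Kcnip4 start, not shown, has 59.2% G or C and neither a GC box nor a CCAAT box. Median G or C content was 58.4% in the 95 channel gene windows and 52.4% in all 32851 windows. Its part in the shares of windows with each box was not tested. A GC box was present in 44.2% of the 95 channel gene windows and in 32.7% of all 32851 windows, and a CCAAT box in 27.4% and 33.8%. The TATA box, searched as TATAAA, was in 3.2% and 12.4%, the E-box CACGTG in 5.3% and 6%, and the cAMP response core TGACG in 13.7% and 17.8%. In the 15 windows of the 6 genes lower at both ages, 5 had a GC box, 3 a CCAAT box and none a TATA box, and the letters in these windows were given no test.

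Among the calcium-activated potassium channels, Kcnmb4, the neuronal beta4 subunit of the BK channel, was lower by -0.14 ± 0.04 (adjusted p = 0.0449) at 4.7 months and -0.15 ± 0.05 (adjusted p = 0.0346) at 6.1 months. Its means were 9.13 in rTg4510, 9.27 in tTA and 9.10 in DN mice at 4.7 months, and 9.05, 9.20 and 9.07 at 6.1 months. The tTA mice thus had the highest mean at both ages. Against DN mice Kcnmb4 differed by 0.04 ± 0.04 at 4.7 months and was not called (adjusted p = 0.697). The BK pore Kcnma1 differed from tTA by -0.07 ± 0.08 and 0.01 ± 0.12 (adjusted p = 0.689 and 0.984). Kcnn2, the SK2 gene of dendritic spines, was lower at 4.7 months (-0.22 ± 0.05, adjusted p = 0.0105) and differed by -0.09 ± 0.09 at 6.1 months (adjusted p = 0.605). Kcnn1 (SK1) differed by -0.16 ± 0.09 and -0.11 ± 0.07 and was not called (adjusted p = 0.342 and 0.383).

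Kcnk2 (TREK-1), a two-pore channel that carries leak current and answers to stretch and lipids, was lower at both ages. Its lowest, median and highest signals were 6.55, 6.82 and 7.11 in rTg4510 and 6.89, 7.10 and 7.50 in tTA mice at the earlier age, and 6.47, 6.63 and 7.23 against 7.01, 7.22 and 7.29 at the later age. In the older group 5 of 6 rTg4510 mice were below every tTA mouse, and the sixth lay near the tTA median. The differences were -0.33 ± 0.08 (adjusted p = 0.0048) and -0.47 ± 0.09 (adjusted p = 0.000418). Kcnk3 (TASK-1, an acid-sensitive leak channel) was lower at 6.1 months in all 6 rTg4510 mice relative to every tTA mouse (-0.31 ± 0.08, adjusted p = 0.00543), although its lowest tTA and highest rTg4510 signals rounded to 5.41 and 5.40. Kcnk1 (TWIK-1) differed by 0.00 ± 0.05 and 0.05 ± 0.05 (adjusted p = 0.993 and 0.59).

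Kcnj10, the Kir4.1 channel through which astrocytes take up potassium, showed the largest rise of any channel gene at 6.1 months. Its lowest, median and highest signals were 7.81, 8.05 and 8.35 in rTg4510, 7.43, 7.58 and 7.73 in tTA, and 7.13, 7.51 and 7.73 in DN mice of that age. The 6 rTg4510 mice lay above all 20 control mice. The difference from tTA was 0.50 ± 0.08 (adjusted p = 3.5e-05), and at 4.7 months it was 0.18 ± 0.08 (adjusted p = 0.195). The astrocyte score was 9.17 ± 0.14 in rTg4510 and 8.53 ± 0.11 in tTA mice at 6.1 months (SD, n = 6 and 10), and its part in the Kcnj10 difference was not tested.

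G-protein-gated inward rectifiers, which slow firing when inhibitory receptors are active, gave 1 call at each age. Kcnj3 (GIRK1) was lower at 4.7 months (-0.28 ± 0.08, adjusted p = 0.0261), a call lost in 4 of 30 fits without 1 mouse, and differed by -0.11 ± 0.16 at 6.1 months (adjusted p = 0.745). Kcnj9 (GIRK3) was lower at 6.1 months, with signals of 7.24, 7.46 and 7.68 in rTg4510 and 7.48, 7.81 and 7.995 in tTA mice (lowest, median, highest), 3 of 6 rTg4510 mice below every tTA mouse, and a difference of -0.35 ± 0.08 (adjusted p = 0.00228). Its dimmest probe set differed by 0.05 (adjusted p = 0.789). Kcnj6 (GIRK2) differed by -0.12 ± 0.07 and 0.07 ± 0.09 (adjusted p = 0.415 and 0.714). Of the called channel genes with other probe sets, 6 of 7 at 4.7 months and 2 of 11 at 6.1 months had another probe set called the same way, and none had one called the opposite way. The 2 genes at 6.1 months were Cacnb1 and Kcnip3. At that age Cacna2d1, Kcnab1, Kcnab2, Kcnab3, Kcnip4, Kcnj9, Kcnk3, Scn2a and Scn3b were called by 1 probe set only.

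The difference between rTg4510 and tTA was not shown to change between the ages. In the test of rTg4510 minus tTA at 6.1 against 4.7 months no channel gene was called by limma, with 8 below an unadjusted p of 0.05, and of all genes 0% were called. Scn3b had the smallest unadjusted p, 0.00749, with a change in difference of -0.20 and an adjusted p of 0.41. The changes were 0.32 for Kcnj10 (adjusted p = 0.426) and -0.38 for Cacna1g (adjusted p = 0.444).

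Against DN mice, which lack both transgenes, more channel genes were called. These comparisons share their rTg4510 mice with those against tTA. At 4.7 months 16 genes were lower and 3 higher, against 7.91% and 7.85% of all genes, and at 6.1 months 23 were lower and 3 higher, against 11.4% and 8.55%. In this comparison 12 genes were lower at both ages and 2, Kcne1l and Kcnj10, higher at both. The share of all genes called at both ages is not given here, so these 2 counts have no background beside them. Kv pore genes, of which none was lower against tTA, had 3 of 18 lower at 4.7 months and 6 of 18 at 6.1 months. Marker lists differed in this comparison as well. All 6 dentate granule genes were lower in rTg4510 than in DN mice at both ages, with scores of 5.45 to 5.99 against 6.54 to 7.02 at 4.7 months and of 5.76 to 6.12 against 6.74 to 6.98 at 6.1 months. All 4 CA1 genes were lower at both ages (7.21 to 7.84 against 8.56 to 8.82 at 6.1 months), the astrocyte list had 5 and 6 of 6 genes higher, and all 9 activated microglia genes were higher at both ages. The part of these shifts in the channel differences was not tested. Without mouse 21 the count at 6.1 months was 26 lower and 3 higher, and without mouse 40 the count at 4.7 months was 18 lower and 3 higher.

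At 6.1 months the largest falls against DN were in Kcnip4 (-0.79 ± 0.09, adjusted p = 1.9e-07), Kcna4 (-0.65 ± 0.10), Kcnj9 (-0.59 ± 0.08), Cacng3 (-0.59 ± 0.12), Scn3b (-0.56 ± 0.04, adjusted p = 1.45e-10) and Kcnk2 (-0.56 ± 0.09). Kcna4 encodes Kv1.4, an inactivating channel of axons, and Cacng3 a further AMPA receptor auxiliary protein. All 6 rTg4510 mice were below all 10 DN mice for each of these genes except Kcnk2, where 5 were. Kcnj10 was higher by 0.57 ± 0.08 (adjusted p = 2.76e-06). At 4.7 months the leading falls were in Kcnip4 (-0.56 ± 0.09), Cacna1h, the T-type Cav3.2 gene (-0.46 ± 0.07, adjusted p = 7.85e-06), and Kcnj9 (-0.44 ± 0.09), and Cacna1g was higher than in DN by 0.34 ± 0.10 (adjusted p = 0.0206) while lower than in tTA. Kcnk1 was called higher at 6.1 months by 0.14 ± 0.05 (adjusted p = 0.0469), a call lost in 15 of 26 fits without 1 mouse.

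**Figure D4:**
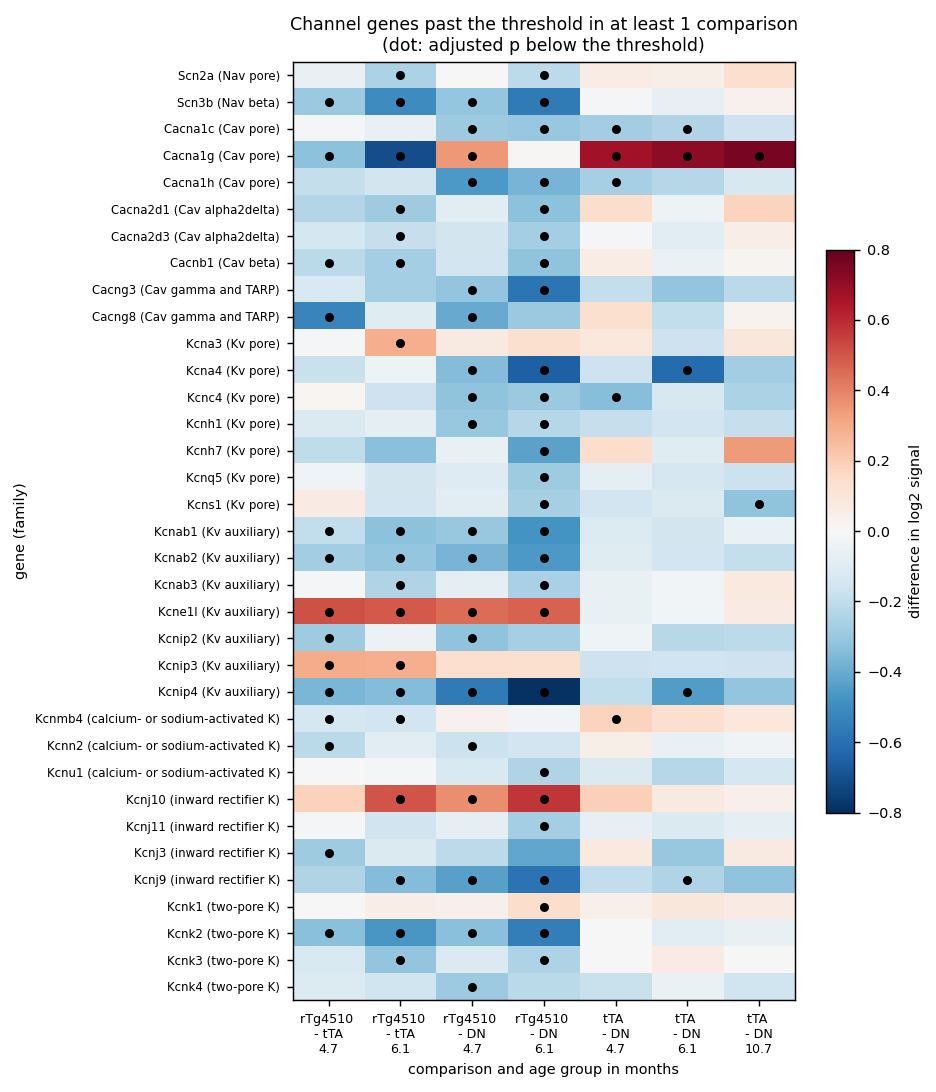
Difference in log2 signal for the 35 channel genes called in at least 1 of the 7 genotype comparisons (columns, with age in months), where blue is lower and red higher in the first genotype and a dot marks an adjusted p below 0.05. Cacna1g is red in the 3 tTA against DN columns and blue in the 2 rTg4510 against tTA columns, and the Kcna4 dots lie in columns that set a tTA-carrying genotype against DN.

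The transactivator alone was addressed by comparing tTA with DN mice. At 4.7 months 2 channel genes were higher and 3 lower, against 1.51% and 3.16% of all genes. At 6.1 months 1 was higher and 4 lower, against 2.7% and 3.62%, and at 10.7 months 1 was higher and 1 lower, against 0.339% and 0.762%. Cacna1g was the gene called higher at every age. Its difference was 0.67 ± 0.10 at 4.7 months, with an adjusted p of 4.27e-05, 0.72 ± 0.08 at 6.1 months, with 2.17e-07, and 0.76 ± 0.12 at 10.7 months, with 0.00876. At 10.7 months the tTA mice had Cacna1g signals of 7.14, 7.14, 7.23, 7.34 and 7.43 and the DN mice 6.00, 6.55, 6.58, 6.59 and 6.76, and the groups did not overlap at 6.1 or 10.7 months. At 4.7 months 9 of 10 tTA mice were above every DN mouse.

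Kcna4 at 6.1 months had signals of 5.32, 5.69 and 6.24 (lowest, median, highest) in tTA, 6.15, 6.33 and 6.52 in DN, and 5.31, 5.71 and 5.94 in rTg4510 mice. The tTA and rTg4510 mice were both low, and the difference between tTA and DN was -0.61 ± 0.09 (adjusted p = 2.09e-05). Kcna4 was not called at 4.7 months (-0.17 ± 0.09, adjusted p = 0.411) or 10.7 months (-0.28 ± 0.08, adjusted p = 0.227). Its change among the ages was not called either (adjusted p = 0.489). Kcnip4 at 6.1 months was lower than in DN (-0.44 ± 0.08, adjusted p = 0.000431) in all 10 tTA mice relative to every DN mouse, and lower again in rTg4510 than in tTA. Cacna1c was below the DN level in tTA mice at 4.7 months (-0.28 ± 0.06, adjusted p = 0.0043) and 6.1 months (-0.24 ± 0.06, adjusted p = 0.0121), and Kcnj9 at 6.1 months (-0.24 ± 0.07, adjusted p = 0.0267), a call lost in 4 of 26 fits without 1 mouse. At 4.7 months Kcnc4, a Kv3.4 gene (-0.34 ± 0.07, adjusted p = 0.00207), and Cacna1h (-0.27 ± 0.07, adjusted p = 0.015) were lower and Kcnmb4 higher (0.18 ± 0.04, adjusted p = 0.014). The other Kcnc4 probe set was not called at that age.

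At 10.7 months Kcns1, an electrically silent Kv subunit, had signals of 3.95, 4.00, 4.02, 4.03 and 4.17 in tTA and 4.28, 4.31, 4.33, 4.39 and 4.48 in DN mice. The groups did not overlap and the difference was -0.32 ± 0.06 (adjusted p = 0.027), but the call was lost in 8 of 10 fits that left out 1 mouse. Without the DN mouse of high astrocyte score, which also had the lowest Cacna1g signal, 1 channel gene was higher and 4 were lower at this age. Dentate granule markers moved with the tTA and DN comparison, with 5, 6 and 5 of 6 genes lower in tTA at 4.7, 6.1 and 10.7 months. Their score at 6.1 months was 5.62 to 5.93 in tTA and 6.74 to 6.98 in DN mice, and its part in the channel differences was not tested. Whether tTA minus DN differed among the ages was tested, and limma called no channel gene (3 below an unadjusted p of 0.05) and 0.0423% of all genes.

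Age was tested within each genotype. In rTg4510, 4 channel genes were called over the 3 ages, against 2.87% of all genes. In tTA and in DN mice, limma called none (12 and 11 genes below an unadjusted p of 0.05), against 0.296% and 0.364% of all genes, but those genotypes were measured over other ages, from 4.7 to 10.7 months, and the genotypes were not compared with each other in this test. The 4 genes were Scn3b (F = 13, adjusted p = 0.0112), Kcnmb4 (F = 11, adjusted p = 0.0213), Kcnq5 (F = 9.35, adjusted p = 0.0387) and Cacna1g (F = 9, adjusted p = 0.0432). Kcnq5 encodes a pore of the M-current, which restrains repetitive firing.

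Between 1.9 and 6.1 months 5 channel genes were lower and none higher in rTg4510, against 2.28% and 1.85% of all genes. Scn3b had lowest, median and highest signals of 9.51, 9.67 and 9.78 at 1.9 months, 9.41, 9.63 and 9.89 at 4.7 months and 9.19, 9.34 and 9.55 at 6.1 months, and 5 of the 6 oldest mice were below all of the youngest. Its difference from 1.9 to 6.1 months was -0.29 ± 0.06 (adjusted p = 0.00812). The others were Kcnk2 (-0.34 ± 0.10, adjusted p = 0.0425), Kcnq5 (-0.31 ± 0.07, adjusted p = 0.0162), Kcnmb4 (-0.23 ± 0.05, adjusted p = 0.0114) and Cacna2d3 (-0.20 ± 0.05, adjusted p = 0.0378). The count was 2 without mouse 7 and 3 without mouse 8, 10 or 11. Of 7 fits that left out 1 mouse, 5 lost the Cacna2d3 call and 4 the Kcnk2 call. Marker lists moved with this comparison too. CA1 markers had 3 of 4 genes lower, with scores of 8.19 ± 0.11 at 1.9 months and 7.51 ± 0.24 at 6.1 months (SD, n = 10 and 6) that did not overlap, and all 9 activated microglia genes were higher, with scores of 5.55 to 6.24 and 6.53 to 7.24. The astrocyte list had 2 of 6 genes higher and the oligodendrocyte list 1 of 4 lower, and the part of these shifts in the channel differences was not tested.

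Between 1.9 and 4.7 months limma called no channel gene (8 below an unadjusted p of 0.05) and 0.889% of all genes, and between 4.7 and 6.1 months none (10 below an unadjusted p of 0.05) and 0.00847% of all genes. Cacna1g differed by 0.15 ± 0.09 between 1.9 and 4.7 months (adjusted p = 0.506), by -0.30 ± 0.11 between 1.9 and 6.1 months (adjusted p = 0.13), and by -0.45 ± 0.11 between 4.7 and 6.1 months (adjusted p = 0.136), so it passed the F test but none of the 3 steps. The F test count was 2 without mouse 7, 11 or 12.

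**Figure D5:**
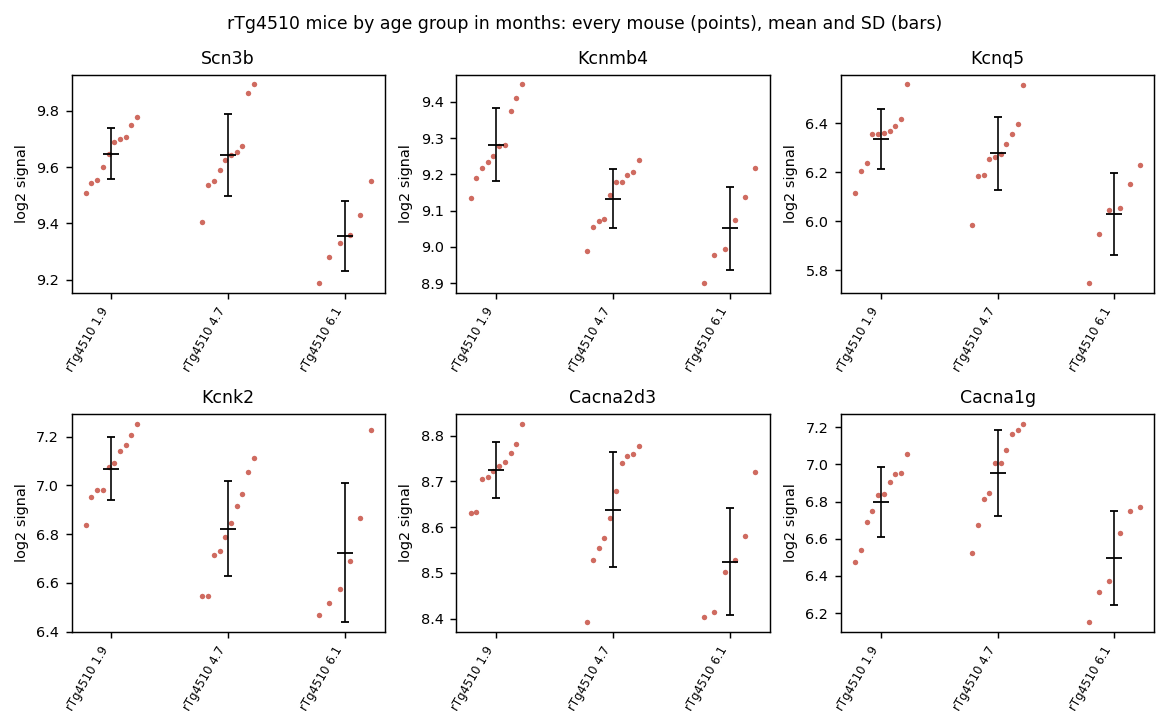
Log2 signal of 6 channel genes in each rTg4510 mouse (points) by age in months, with group mean and SD (10, 10 and 6 mice). The oldest mice are lower for Scn3b (9.19 to 9.55, against 9.51 to 9.78 at 1.9 months) and the Kcnk2 panel shows 1 mouse of 6.1 months, at 7.23, among the youngest.

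Of 30 genes listed as partners that bind, place or regulate these channels, 17 were measured. Against tTA none was higher, beside 5.73% and 6.23% of all genes at the earlier and later age. At 4.7 months 4 were lower, beside 3.38% of all genes, and the median of the 17 was -0.07 (-0.01 for all genes). At 6.1 months 6 were lower, beside 8.64% of all genes, and the median was -0.11 (-0.02 for all genes). Fgf14, a cytoplasmic factor that binds sodium channels at the axon initial segment, was lower by -0.63 ± 0.08 (adjusted p = 3.91e-06) and -0.73 ± 0.08 (adjusted p = 1.17e-07). Between tTA and DN mice Fgf14 differed by 0.08 ± 0.08 at 4.7 months and -0.07 ± 0.07 at 6.1 months. Neither was called (adjusted p = 0.751 and 0.691). In rTg4510 it differed by 0.04 ± 0.07 between 1.9 and 6.1 months (adjusted p = 0.816). Tau expression and other effects of carrying the tau transgene cannot be told apart in rTg4510 against tTA. Nedd4l, a ubiquitin ligase that removes channels from the membrane, was lower by -0.26 (adjusted p = 0.00203) and -0.27 (adjusted p = 0.00745). The other partners lower at 4.7 months were Fgf13 and Pex5l, which traffics HCN channels. Those lower at 6.1 months were Dpp6, a Kv4 partner, Fgf11, Sptbn4, the spectrin of the initial segment, and Stx1a. Against DN at 6.1 months Stx1a differed by -0.01 ± 0.08 (adjusted p = 0.954) and Sptbn4 by -0.18 ± 0.08 (adjusted p = 0.104), and neither was called. Fgf14, Nedd4l, Dpp6 and Fgf11 were called lower than in DN at that age. Stx1a was higher in tTA than in DN at 6.1 months by 0.42 ± 0.07 (adjusted p = 0.000179). In tTA against DN the partners had 1 higher and 1 lower at 4.7 months (1.51% and 3.16% of all genes), 1 higher and 2 lower at 6.1 months (2.7% and 3.62%), and none called at 10.7 months (0.339% and 0.762%).

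Over the 7 genotype comparisons, 35 of the 88 channel genes (39.8%) were called at least once, beside 31.6% of all 11807 genes, and 53 were not. Called genes kept 1 direction, apart from Cacna1g and Kcnmb4, which were higher in tTA than in DN and lower in rTg4510 than in tTA. The shared tTA mice enter both of those comparisons.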

How the data were processed

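The authors extracted hippocampal RNA with RNeasy kits, amplified it with the Ovation Pico WTA system, labelled it with the Encore Biotin module and hybridised it to the Affymetrix HT-MG-430A array. RMA (version not given in the sources used here), by which the authors equalised array distributions, gave the deposited log2 values. Small differences are therefore relative to all probe sets. The study left out a tTA array of 6.1 months, and the labels do not say whether it is among the 76. The genome build behind the array was not given in the sources used here. Of 22716 probe sets, 90 controls were left out and 22626 tested, and 18003 had 1 symbol, 287 several and 4336 were not listed. Genotype was compared in 1 fit per age over its genotypes, and age within each genotype, with limma 3.58.1 in R 4.3.3, two-sided, with Benjamini-Hochberg adjustment over the 22626 probe sets and a threshold of 0.05. Scripts were tested on simulated data. Figures were drawn with matplotlib 3.10.9. The number of arrays limits precision.

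The channel genes, families and lists were chosen with earlier results of these data known. Named genes are the 10 largest falls and rises against tTA at each age, the 6 largest in each other comparison, and 19 genes named whatever their values. Others are named where a count of 5 or fewer needed it. Marker scores are mean log2 signals.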

Additional observations from a re-analysis of the deposited data

Results flagged for a closer look

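Single mice lay far from the rest of their group for some of the 18 channel genes named for rTg4510 against tTA. Of 162 gene and group pairs 12 were picked out, or 1.48 per 20, where chance gives about 1 in 20. A single DN mouse of 10.7 months gave 4 of them, being lowest for Cacna1g (6.004, next 6.546), Cacnb1 (6.006, next 6.255) and Kcnab1 (8.811, next 9.057) and highest for Kcnj10 (8.233, next 7.607). Mouse 21 (tTA, 6.1 months) gave 2, being lowest for Kcnip2 (6.931, next 7.6) and Kcnip4 (6.703, next 7.182).

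The other mice gave 1 each. Cacna1g was highest in mouse 13 (tTA, 6.1 months) at 7.509, next 7.268. Kcnab1 was lowest in mouse 70 (DN, 4.7 months) at 8.707, next 8.948, and in a tTA mouse of 10.7 months at 8.873, next 8.993. Kcnab2 was highest in mouse 78 (DN, 6.1 months) at 10.122, next 9.988. Kcnj10 was highest in mouse 69 (tTA, 4.7 months) at 8.055, next 7.752, and Kcnn2 in mouse 66 (tTA, 4.7 months) at 8.738, next 8.499.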

How the results depend on the processing

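No paired analysis was possible because the groups share no replicate numbers. The alternatives were a plain linear model, median centring, repeated quantile normalization, the linear scale, brighter probe sets only, all 9 groups in 1 fit, the choroid plexus score as a covariate, other probe sets and leaving out mice. Outside the fits that left out 1 mouse, 109 counts of called channel genes stayed within 1.5 times and 11 moved. With the covariate the count in rTg4510 against tTA at 4.7 months was 5, and age in tTA and age in DN each gave 1. On the linear scale tTA against DN gave 8 at 6.1 months and 1 at 10.7 months, and age in rTg4510 gave 2. The plain model gave 0 for tTA against DN at 10.7 months and 2 for age in rTg4510, and brighter probe sets gave 1 at 10.7 months. With all 9 groups fitted, age in tTA gave 1 and rTg4510 at 6.1 against 4.7 months gave 2. The cause was not tested.

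Leaving out 1 mouse, the counts were 8 to 17 and 15 to 20 in rTg4510 against tTA at 4.7 and 6.1 months, 18 to 21 and 22 to 29 against DN, and 5 to 6, 4 to 7 and 1 to 5 in tTA against DN at 4.7, 6.1 and 10.7 months. They were 2 to 6 for age in rTg4510, 2 to 6 for 6.1 minus 1.9 months and 0 to 1 for 6.1 minus 4.7 months. In these rTg4510 age fits only a mouse of 6.1 months or mouse 40 was left out, and no mouse of 1.9 months. For Kcnip2 in rTg4510 against tTA at 4.7 months a dim probe set gave 0.0198. For Kcnj9 a dim probe set gave 0.0552 and 0.0717 in rTg4510 against DN at 4.7 and 6.1 months, 0.0474 against tTA at 6.1 months and 0.0243 in tTA against DN at 6.1 months. For Cacna2d1 in rTg4510 against tTA at 6.1 months a dim probe set gave 0.03727. Probe sets near background limit what these arrays show.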
